A study of Bos taurus with 18 samples.

Results

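The rumen epithelium expressed 2 genes of urea handling that carry this account, *SLC14A1* (ENSBTAG00000019870) and *ARG1* (ENSBTAG00000012403). They were chosen by name, and they are 2 of the 24616 genes in the table and 2 of the 13284 genes that were tested. RNA-seq libraries came from 18 multiparous Holstein cows in mid-lactation, 6 on each of 3 diets. The diets shared a concentrate mix and corn silage and differed in forage, with alfalfa hay plus Chinese wild rye hay (AH), corn stover (CS) or rice straw (RS). Cows are named below by diet and replicate number, and values are CPM, read counts of a gene relative to the sum over annotated genes in that cow. The reads on genes came to 16099131 to 32252177 per cow. The study picked *SLC14A1* for AH vs. RS and *ARG1* for AH vs. CS and AH vs. RS from these same cows, so the tests of those comparisons are not independent evidence of a difference. Papillae of the ventral sac were sampled according to the study's methods, although the extraction text of the labels speaks of rectal tissue. Transcripts of *TGM3*, *DSG1* and *SLURP1*, genes of stratified squamous epithelium, each had at least 99 reads in every cow. Of 9 listed markers of rectal epithelium, 0 had a matched symbol, so the origin of the tissue was not tested. Gene symbols could be matched to identifiers for 73 genes only, so most cell type markers were not analysed here.

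In ruminants, urea made in the liver from surplus ammonia partly returns to the rumen across its epithelium, where bacterial urease splits it and the ammonia can be built into microbial protein. *SLC14A1* encodes the urea transporter UT-B, a facilitative channel in the membranes of epithelial cells and erythrocytes. *ARG1* encodes arginase 1, the enzyme of the last step of the urea cycle, which hydrolyses arginine to urea and ornithine. Arginase 1 is best known from the liver, is also found in keratinising epithelia, and its ornithine feeds the synthesis of polyamines and proline.

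*SLC14A1* was an abundant transcript in every cow. It ranked between 92 and 696 among the 24616 genes by CPM within a cow, with a median rank of 230, on a scale that is not corrected for transcript length. The 6 cows fed AH had 775, 799, 338, 1287, 652 and 792 CPM (AH1 to AH6), with a mean of 774 ± 306 (SD, n = 6). Cows fed CS had 749, 365, 491, 518, 604 and 713 CPM (CS1 to CS6), with a mean of 573 ± 145 (SD, n = 6). In cows fed RS the levels were 494, 400.1, 352, 379.8, 177 and 517 CPM in replicate order, with a mean of 387 ± 122 (SD, n = 6). The diets therefore ranked AH, CS, RS by mean and also by median (783, 561 and 389.9 CPM). The ranges overlapped for each pair of diets. AH3 lay below every cow fed CS and within the range of RS, and 5 of 6 cows fed AH lay above all cows fed RS. RS3 and RS5 lay below all cows fed CS, and the other 4 cows fed RS lay within the range of CS. Between 3365 and 28055 reads stood behind each value, which gives an exact Poisson 95% interval no wider than −3.35% to 3.44% of the value for counting error alone.

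*ARG1* was less abundant and more uneven between cows of the same diet. Its rank within a cow ran from 355 to 7260, with a median of 1775.5. In AH1 to AH6 the levels were 172.5, 29.1, 108, 80.1, 136 and 359.5 CPM, with a median of 122 and a mean of 147 ± 115 (SD, n = 6). In CS1 to CS6 they were 11.4, 29.7, 119.6, 71.1, 135 and 79.5 CPM, with a median of 75.3 and a mean of 74.4 ± 48.5 (SD, n = 6). In the 6 cows fed RS, in replicate order, they were 44.3, 84.7, 100.02, 99.3, 14.1 and 57.7 CPM, with a median of 71.2 and a mean of 66.7 ± 34.2 (SD, n = 6). All 3 ranges overlapped widely. AH6 held the highest level of the 18 cows and CS1 the lowest, and AH2 lay below most of the cows fed straw or stover. Each value rested on 207 to 7366 reads, and the widest exact Poisson 95% interval was −13.2% to 14.6% of the value.

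**Figure D1:**
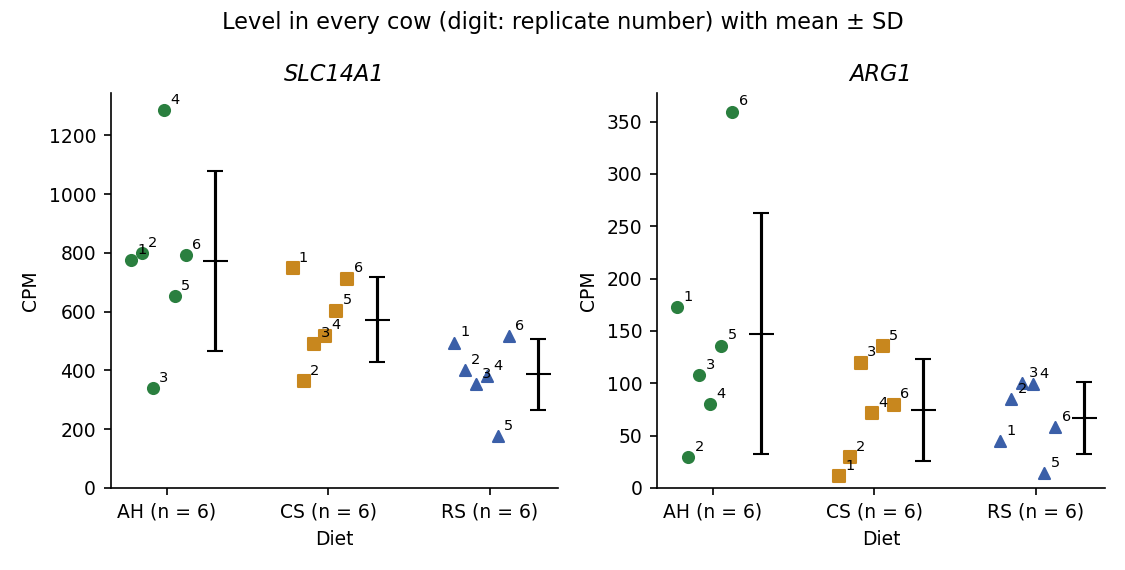
CPM of *SLC14A1* (left) and *ARG1* (right) in each of the 18 cows by diet, with the replicate number beside each point and a horizontal tick with bar for the mean ± SD (n = 6 per diet). *SLC14A1* means step down from 774 in AH over 573 in CS to 387 in RS, while *ARG1* levels of the 3 diets overlap and AH6 stands highest at 359.5.

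The spread between cows set the 2 genes apart. For *SLC14A1* the coefficient of variation was 39.6% for AH, 25.2% for CS and 31.5% for RS, whereas for *ARG1* it was 77.8%, 65.1% and 51.2%. On the log2(CPM + 0.5) scale the SD within diets was 0.53 for *SLC14A1* and 1.21 for *ARG1*, against a median of 0.49 over all genes tested. For *ARG1*, 98.1% of the genes tested had a smaller SD within diets, and for *SLC14A1* 56.8% did. The highest of the 18 cows held 7.29 times the lowest for *SLC14A1* and 31.5 times the lowest for *ARG1*. Differences between diets made up 40.5% of the log2 variance of *SLC14A1* and 15.7% of that of *ARG1*, where the median over all genes was 4.60%. A larger share was found in 0.813% of genes than for *SLC14A1* and in 12.8% than for *ARG1*. These shares describe the same samples from which the study picked its genes. They are not corrected for the number of diets, so spread between cows alone gives a share above 0. The median of 4.60% does not stand for that share. Whether the share of *ARG1* exceeds what spread between cows alone gives was not tested.

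The comparison of AH vs. RS sets the diet with alfalfa against that with rice straw. *SLC14A1* had the higher mean in AH, with a ratio of mean CPM of 2.00 and a difference of 0.97 ± 0.28 (SE) on the log2(CPM + 0.5) scale, 95% interval 0.39 to 1.56. By limma the unadjusted p was 0.00245, the gene at position 29 of 13284 by p, and the adjusted p was 1.00. The two-sided exact permutation test of mean CPM gave p = 0.0152, where the smallest p that 6 against 6 cows allow is 0.0022. *ARG1* had a ratio of mean CPM of 2.21 and a log2 difference of 1.01 ± 0.61, 95% interval −0.26 to 2.29, with limma p = 0.113, adjusted p = 1.00 and an exact permutation p of 0.0931. For *ARG1*, 4 of 6 cows fed AH lay above all cows fed RS. Neither of the 2 genes was called (limma adjusted p under 0.05 and over 2-fold), where 0.00753% of all genes tested were. At an unadjusted p under 0.05 limma listed *SLC14A1* and not *ARG1*, beside 1.79% of all genes. Without any true difference, that threshold would list a larger share on average, here and in the other comparisons. A listing does not by itself mark a difference. On recovered reads *ARG1* was also under 0.05 before adjustment, with an unadjusted p of 0.0445 by edgeR's quasi-likelihood test and 0.0450 by DESeq2 (adjusted p 1.00 by both tools), and neither tool called either gene. The lowest adjusted p by any tool was 0.115 for *SLC14A1*, from DESeq2, and 0.0617 for *ARG1*, from edgeR's exact test with 1 dispersion for all genes.

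AH vs. CS sets alfalfa against corn stover. The *SLC14A1* ratio of mean CPM was 1.35 and its log2 difference 0.37 ± 0.28, 95% interval −0.22 to 0.96, with limma p = 0.203, adjusted p = 1.00 and exact permutation p = 0.180. The interval holds differences from slightly lower to nearly 2-fold higher levels in AH. *ARG1* had a ratio of 1.98 and a log2 difference of 1.01 ± 0.61, 95% interval −0.27 to 2.28, with limma p = 0.116, adjusted p = 1.00 and exact permutation p = 0.171. Here 3 of 6 cows fed AH exceeded all cows fed CS, and the ratio of medians, 0.69 on the log2 scale, was smaller than that of the means. Limma called 0 of the 2 genes against 0.00753% of all genes tested, and 0 of the 2 also at an unadjusted p under 0.05, against 1.87% of all genes. Both ratios of mean CPM were under 2-fold, so limma, edgeR's quasi-likelihood test and DESeq2 could call neither gene at any p. The lowest adjusted p of *ARG1* by any tool was 0.0987, from the same exact test of edgeR.

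RS vs. CS compares the pair of low-quality forages. *SLC14A1* was 1.48 times as high in CS as in RS by mean CPM. Its log2 difference, RS minus CS, was −0.60 ± 0.28, 95% interval −1.19 to −0.02, with limma p = 0.0441, adjusted p = 1.00 and exact permutation p = 0.0455, and 2 of 6 cows fed RS lay below all cows fed CS. The *ARG1* difference was −0.01 ± 0.61, 95% interval −1.28 to 1.27, with limma adjusted p = 1.00 and exact permutation p = 0.747, an interval that leaves room for more than a 2-fold difference in either direction. Limma called 0 of the 2 genes and 0% of all genes tested here. Both genes were under 2-fold by mean CPM, so limma, edgeR's quasi-likelihood test and DESeq2 could call neither at any p. At an unadjusted p under 0.05 limma listed *SLC14A1* beside 1.29% of all genes, and edgeR's quasi-likelihood test and DESeq2 called neither gene. Among neighbours in the order of diets, no difference between AH and CS was resolved for *SLC14A1* with all cows included. There, 4 of 6 cows fed AH lay above all cows fed CS, and AH3 lay below all of them. CS and RS differed for *SLC14A1* by the exact test before any adjustment, but the unadjusted limma p rose to 0.141 without RS5. For *ARG1* no difference was resolved in either neighbouring pair, and both intervals leave room for more than a 2-fold difference.

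With the 12 cows fed CS or RS pooled, *SLC14A1* was 1.61 times as high in AH by mean CPM, with a log2 difference of 0.67 ± 0.24, 95% interval 0.16 to 1.18, limma p = 0.0121 and exact permutation p = 0.0173. *ARG1* was 2.09 times as high, with a log2 difference of 1.01 ± 0.53, 95% interval −0.10 to 2.11, limma p = 0.0711 and exact permutation p = 0.0559. The adjusted p by limma was 1.00 for both genes, and 0.0151% of all genes tested were called. At an unadjusted p under 0.05 limma listed *SLC14A1* and not *ARG1*, beside 2.25% of all genes, whereas the unadjusted p of *ARG1* was 0.0205 by edgeR's quasi-likelihood test and 0.0245 by DESeq2. In all, 8 exact tests were made, and their Benjamini-Hochberg adjusted p-values over that family are not given because the genes were chosen with earlier results known. Comparisons with AH share the same 6 cows, so they are not independent of each other. In bulk tissue, fewer cells of a type and less RNA per cell cannot be told apart.

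**Figure D2:**
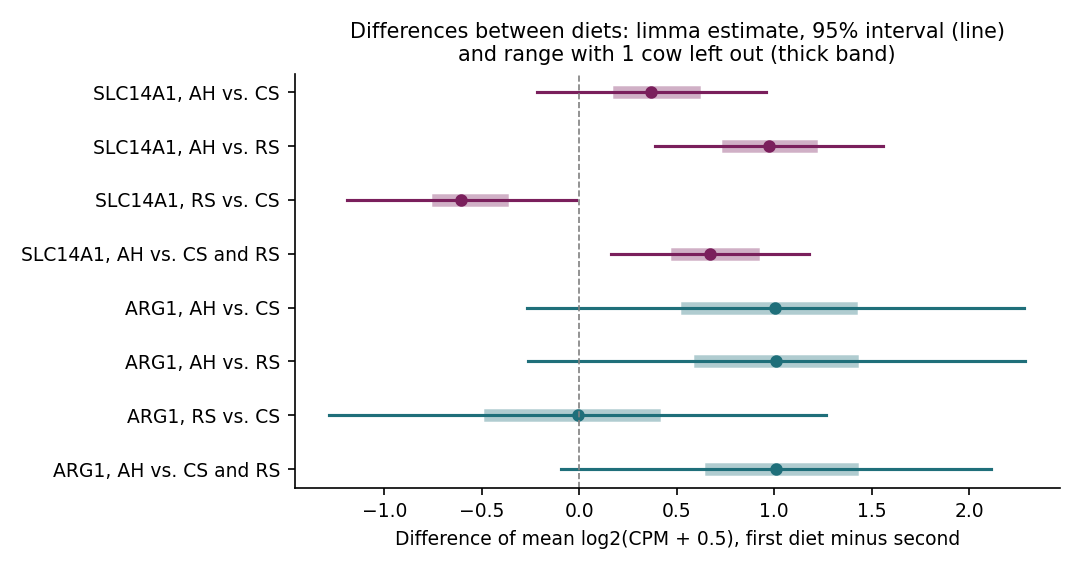
Limma difference of mean log2(CPM + 0.5), first diet minus second, for *SLC14A1* and *ARG1* in 4 comparisons. Points are estimates from 18 cows, thin lines 95% intervals, and thick bands the range of the estimate with each cow left out in turn; the *SLC14A1* lines of AH vs. RS (0.39 to 1.56) and RS vs. CS (−1.19 to −0.02) and of AH against both other diets lie to a single side of 0, and all *ARG1* lines cross it.

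Single cows moved the differences of both genes. With each cow left out in turn, the *SLC14A1* difference of AH vs. RS ranged from 0.76 (without RS5) to 1.19 (without AH3), and its lowest adjusted p by limma was 0.207. In AH vs. CS it ranged from 0.20 (without AH4) to 0.59 (without AH3, with an unadjusted limma p of 0.0305 and an adjusted p of 1.00), and it was 0.25 without CS2. The *ARG1* difference of AH vs. RS ranged from 0.62 (without RS5) to 1.40 (without AH2), and that of AH vs. CS from 0.55 (without CS1) to 1.39 (without AH2). In RS vs. CS the *SLC14A1* difference ranged from −0.73 (without CS2) to −0.39 (without RS5), whereas that of *ARG1* took either sign, from −0.46 (without CS1) to 0.38 (without RS5).

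Several of the cows with low levels stood apart in other genes. *FBN1*, which encodes the microfibril protein fibrillin-1 made by fibroblasts, had 448 CPM in AH3 and 389 in RS3, against at most 169 in the other 16 cows, and *DPT*, the matrix protein dermatopontin, had 157 and 266 against at most 85.9. These were 2 of 8 fibroblast markers with a matched symbol, neither was at 0 in any cow, and their summed level ran from 35.4 to 605 CPM with AH, from 41.6 to 179 with CS and from 75.5 to 655 with RS. AH3 had the lowest *SLC14A1* of AH (338 CPM) and RS3 the second lowest of RS (352 CPM), while for *ARG1* AH3 lay in the middle of AH and RS3 was the highest of RS. *BAG3*, a co-chaperone of the heat shock response, had 1077 CPM in CS2 and 783 in RS5, against at most 221 in the other 16 cows. CS2 and RS5 had the lowest *SLC14A1* of their diets, RS5 also the lowest *ARG1* of RS, and CS2 the second lowest *ARG1* of CS. Without AH3 and RS3 the *SLC14A1* difference of AH vs. RS was 1.18 (limma adjusted p = 0.427), without CS2 and RS5 it was 0.76, and without all 4 cows it was 0.91 (limma adjusted p = 0.317). For *ARG1* the corresponding values were 1.19, 0.62 and 0.75. The AH vs. RS difference thus kept its direction for both genes in each of these sets of cows.

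Other genes of nitrogen handling came from lists of 61 symbols for urea transport, the urea cycle, arginine carriers and enzymes, polyamine and proline synthesis and ammonia handling, of which 4 could be matched to an identifier and tested, *SLC14A1* and *ARG1* included. The remaining pair were *PADI1*, which encodes an enzyme that turns arginine within proteins into citrulline, and *SLC6A14*, a carrier of neutral and cationic amino acids that takes up arginine. *PADI1* averaged 22.4 ± 20.6 CPM with AH, 7.16 ± 2.75 with CS and 4.50 ± 5.55 with RS (SD, n = 6 each). Its log2 difference in AH vs. RS was 2.38 ± 0.71, with an unadjusted limma p of 0.00302 and an adjusted p of 1.00. *SLC6A14* averaged 5.55 ± 3.84 CPM with AH, 18.3 ± 15.2 with CS and 8.76 ± 3.64 with RS (SD, n = 6 each). Its log2 difference in AH vs. CS was −1.48 ± 0.48, with an unadjusted limma p of 0.00579 and an adjusted p of 1.00. *PADI1* thus had its highest mean in AH, like *SLC14A1* and *ARG1*, and *SLC6A14* its lowest. Limma called 0 of the 4 in every comparison, as did edgeR's quasi-likelihood test, though a gene under 2-fold could not be called. At an unadjusted p under 0.05 limma listed single genes or pairs. In AH vs. CS this was 1 gene lower in AH (*SLC6A14*), beside 1.23% of all genes higher and 0.647% lower. For AH vs. RS it was 2 genes higher in AH (*SLC14A1* and *PADI1*), beside 0.956% of all genes higher and 0.836% lower. For RS vs. CS it was 1 gene lower in RS (*SLC14A1*), beside 0.286% of all genes lower and 1% higher. The median of the 4 log2 differences was 0.69 for AH minus CS, 0.99 for AH minus RS and −0.68 for RS minus CS, where that of all genes tested was 0.04, 0.03 and 0.01. *PADI1* and *SLC6A14* were matched because the study had picked them on these cows too, so these counts are no independent evidence.

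Across the 18 cows, *SLC14A1* and *ARG1* varied largely apart from each other. On the log2(CPM + 0.5) scale Pearson's r was 0.30 (permutation p = 0.232, Benjamini-Hochberg adjusted p = 0.344 over 21 relations) and Spearman's rho 0.13 (permutation p = 0.603). Without AH4 and RS5, which lay farthest from the median of *SLC14A1*, r was 0.02. With diet means removed r was 0.14, and within diets it was −0.10 for AH, −0.12 for CS and 0.67 for RS, with exact permutation p-values of 0.861, 0.793 and 0.161. CS1 held the lowest *ARG1* of all cows with the highest *SLC14A1* of CS, and AH4 held the highest *SLC14A1* with an *ARG1* level below the AH median.

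**Figure D3:**
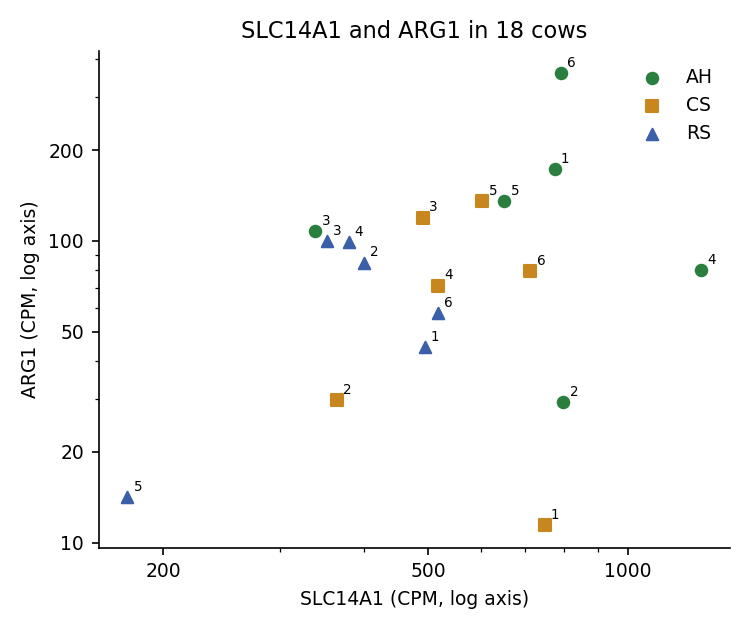
CPM of *SLC14A1* (x) against *ARG1* (y) in each of 18 cows, both on log axes, with symbols for the diets and the replicate number beside each point. RS5 lies low in both genes, CS1 is low in *ARG1* alone and AH6 is high in *ARG1* alone, and r over all cows is 0.30.

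For each of the 2 genes, the named genes most and least like it are also given. They were taken from the 72 genes with a matched symbol besides the gene itself, all of which the study had picked on these cows. The ranking was by r across the 18 cows on the log2(CPM + 0.5) scale. These are descriptions without a test since libraries and diets are shared. Closest to *SLC14A1* were *ENPEP*, the glutamyl aminopeptidase (r = 0.76), *FABP4*, a fatty acid-binding protein (0.71), *EPHX2*, the soluble epoxide hydrolase (0.70), *ID1*, an inhibitor of helix-loop-helix transcription factors (0.68), and *ANKRD24* (0.63). With diet means removed these values were 0.57, 0.63, 0.58, 0.54 and 0.48. At the opposite end stood *CFB*, complement factor B (r = −0.74), *PLXDC1* (−0.72) and *IGLL1*, an immunoglobulin lambda-like gene (−0.68). Reads of *IGLL1* that also hit near-identical copies would have been dropped before counting. *CFB* was second from the bottom of all 13283 genes compared with *SLC14A1*, and the median r of those genes was 0.15. From the top, *ENPEP* ranked 15 and *ANKRD24* 177. The highest r of all, 0.92, belonged to a gene without a matched symbol.

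Of the named genes, those closest to *ARG1* were *TPRG1* (r = 0.91), *VNN2*, a pantetheinase of the vanin family (0.85), *CRISP3*, a secreted cysteine-rich protein (0.84), *AHSG*, which encodes fetuin-A (0.82), and *NOV*, a matricellular protein (0.70). *TPRG1* ranked first of all 13283 genes in likeness to *ARG1*, whereas *NOV* ranked 780. With diet means removed the values were 0.89, 0.82, 0.83, 0.81 and 0.64, so these genes followed *ARG1* from cow to cow within diets nearly as closely as across them. The lowest were *S100A8*, a calcium-binding protein of neutrophils and stressed squamous epithelium (r = −0.69), *HSPB8*, a small heat shock protein (−0.51), and *AIF1*, a gene of macrophages (−0.48), while the median over all genes was 0.20. Counted from the bottom of all genes, these ranked 101, 674 and 812. No gene was among the 5 highest named genes of both *SLC14A1* and *ARG1*.

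**Figure D4:**
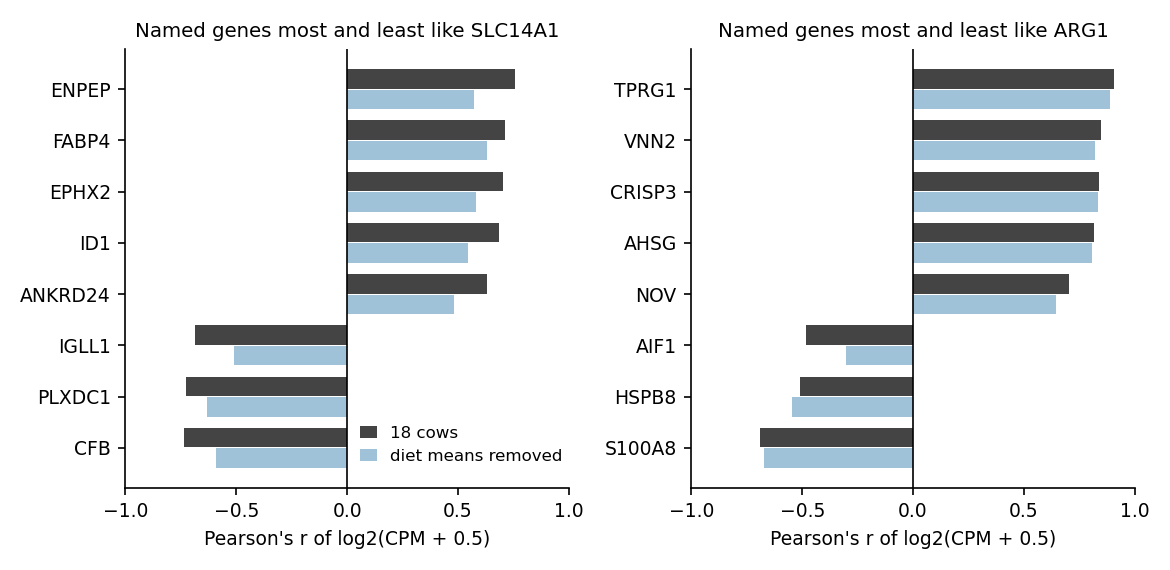
Pearson's r of log2(CPM + 0.5) with *SLC14A1* (left) and *ARG1* (right) for the 5 highest and 3 lowest of 72 named genes, over 18 cows (dark bars) and with the diet means removed (light bars). The 5 highest values for *ARG1* change little when diet means are removed (*TPRG1* 0.91 and 0.89), while those for *SLC14A1* shrink (*ENPEP* 0.76 and 0.57).

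Of the 21 relations of the 2 genes with each other and with 10 further genes of the lists, 2 passed the adjustment by Pearson's r. These 10 genes, too, had symbols because the study picked them on these cows, so genes that differ with diet could be related over all 18 cows through diet alone, and each relation was also tested with diet means removed and cows permuted within diets. *SLC14A1* was lower where *AIF1*, the single matched symbol of 7 macrophage markers, was higher (r = −0.67, permutation p = 0.00241, adjusted p = 0.0253). Spearman's rho was −0.59 (permutation p = 0.0114, adjusted p = 0.0799), r was −0.60 without the 2 cows farthest from the median, and within diets r was −0.84 for AH, −0.15 for CS and −0.35 for RS. With diet means removed r was −0.59 (permutation p = 0.0215, adjusted p = 0.113), so this relation did not pass the adjustment within diets. *AIF1* itself was lower in cows fed AH, with 6.84 to 28.2 CPM, a median of 16.3, against 24.8 to 43.4 with CS and 26.4 to 42.1 with RS, and its part in the *SLC14A1* differences between diets was not tested. *ARG1* was higher where *AHSG* was higher (r = 0.82, permutation p = 6.0e-05, adjusted p = 0.00126). Spearman's rho was 0.78 (permutation p = 0.00027, adjusted p = 0.00567), r was 0.70 without CS1 and RS5, and within diets it was 0.75 for AH, 0.96 for CS and 0.77 for RS. With diet means removed r was 0.81 (permutation p = 7.0e-05, adjusted p = 0.00147), and this relation passed within diets as well. A relation of *ARG1* with *TGM3*, a transglutaminase of the cornified layer, reached r = 0.68 with diet means removed (permutation p = 0.00473, adjusted p = 0.0497) and r = 0.28 over all cows (permutation p = 0.252, adjusted p = 0.344). Without CS1 and RS5, the r not corrected for diet was 0.10 (permutation p = 0.705). Within diets r was 0.54 for AH, 0.85 for CS and 0.62 for RS. The other matched markers of the cornified layer did not pass with diet means removed, *DSG1* with r = 0.14 (permutation adjusted p = 0.660) and *SLURP1* with r = 0.44 (permutation adjusted p = 0.243). By diet, mean *TGM3* was lowest in AH (478 CPM, against 1121 in CS and 1152 in RS). *DSG1* and *SLURP1* had their highest means in AH (34.5 and 54.6 CPM). *AHSG* and *TTR*, the 2 matched symbols of 11 hepatocyte markers, summed to between 6.01 and 74.3 CPM with AH, 2.87 and 20.05 with CS and 4.30 and 18.03 with RS. *TTR* alone had 49.0 CPM in AH5. The relation of *ARG1* with *TTR* did not pass the adjustment over all cows (r = 0.57, permutation p = 0.0157, adjusted p = 0.0659). With diet means removed it did not pass either (r = 0.50, permutation p = 0.0559, adjusted p = 0.235). For *ARG1* and *PADI1* the relation did not pass the adjustment either over all cows (r = 0.61, permutation p = 0.00717, adjusted p = 0.0502) or with diet means removed (r = 0.56, permutation p = 0.0135, adjusted p = 0.0947).

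**Figure D5:**
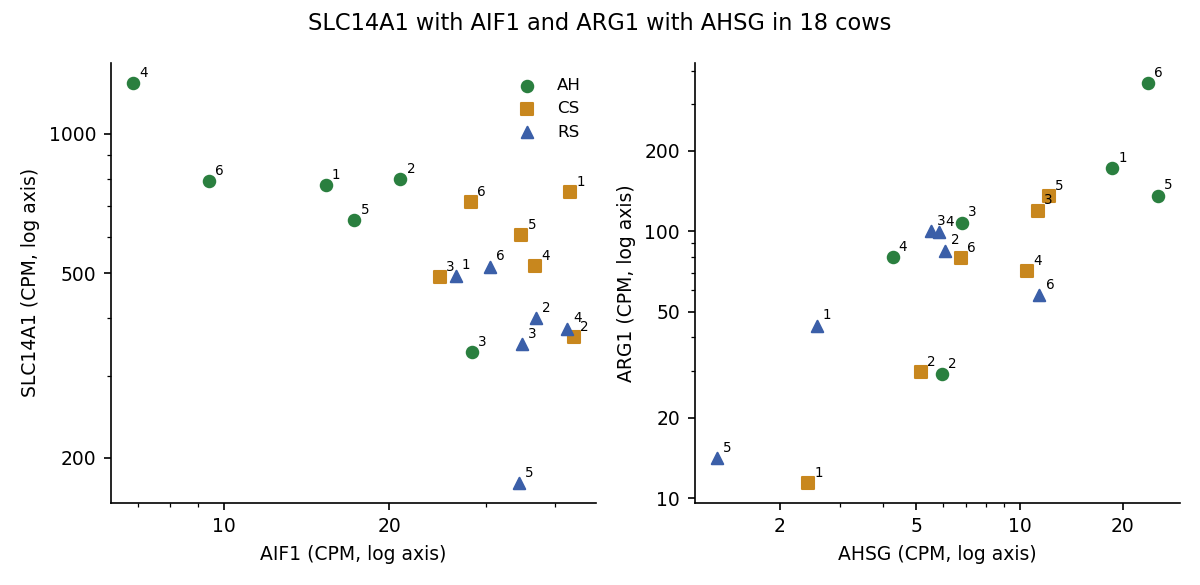
CPM of *AIF1* against *SLC14A1* (left) and of *AHSG* against *ARG1* (right) in each of 18 cows on log axes, with symbols for the diets and the replicate number beside each point. The left panel slopes down (r = −0.67), with 5 of 6 cows fed AH at the low *AIF1* end, and the right panel slopes up (r = 0.82) within each diet.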

How the data were processed

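The authors sequenced RNA of rumen papillae as paired-end reads on a HiSeq system, mapped them with TopHat2 to the UMD3.1 build of the bovine genome, dropped reads with several hits, counted them over Ensembl genes (HTSeq) and deposited CPM, read counts scaled to the reads on annotated genes. Tool versions and the strand setting of the counting are not given in the sources used here. At a tolerance of 0.02, 100% of the values were whole multiples of 1 read, so reads were recovered for the count tests. The value of 3 reads, the limit that a count of 0 allows, was 0.0930 to 0.186 CPM. Intervals and floors cover counting error only, since PCR copies are not independent molecules. The chi-square per degree of freedom between cows of one diet was 42.6 to 333, so each cow counted as 1 replicate. A symbol was taken only from the study's gene table, which paired 73 symbols with identifiers. No sequence, UMD3.1 position or batch label was used here.

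Genes with at least 1 CPM in 3 cows of a diet (13284) were tested (R 4.3.3, limma 3.58.1 fitting a mean-variance trend) on log2(CPM + 0.5) of all 18 cows with a term per diet and Benjamini-Hochberg adjustment over all genes. A gene was called at an adjusted p under 0.05 and over 2-fold by mean CPM. Alternatives were edgeR 4.0.16 and DESeq2 1.42.0 on recovered reads, other pseudocounts, filters and scalings, and leaving out cows. Leaving out AH3 and RS3, CS2 and RS5, or all 4 was chosen after seeing the data. Exact permutation tests of mean CPM were two-sided, and correlations used 100000 permutations (scipy 1.17.1). The permutations within diets were added after seeing the data. Named genes were the 2 genes, the matched symbols of the nitrogen lists, and the 5 highest and 3 lowest symbols in likeness, beside the marker genes that a result turned on. *BAG3*, *FBN1* and *DPT* were named after their values were seen. The genes and the lists were chosen with earlier results of these data known. Sums over marker lists were planned for the correlations, but under 80% of each list had a matched symbol, so that check is void and single genes were used.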

Additional observations from a re-analysis of the deposited data

Results flagged for a closer look

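Neither *SLC14A1* nor *ARG1* held a cow that stood apart from the other 5 of its diet by Dixon's criterion (95% critical value 0.625 for 6 samples). Among 81 groups of 6 cows, 27 genes in 3 diets, 14 held such a cow. The criterion's rate of 1 in 20 cannot be set against this count. *BAG3*, *FBN1* and *DPT* were named after their values were seen, and the same cows recur among the groups.

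Of the genes named beside *SLC14A1*, *FBN1* stood apart in AH3 (448 CPM) and RS3 (389 CPM), *DPT* in AH3 (157 CPM) and RS3 (266 CPM), and *CFB* (187 CPM) and *PLXDC1* (26.2 CPM) in AH3. These 2 cows had the lowest and second lowest *SLC14A1* of their diets. *BAG3* stood apart in CS2 (1077 CPM) and RS5 (783 CPM), as did *HSPB8* (649.9 and 598 CPM), and both cows had the lowest *SLC14A1* of their diets. *ANKRD24* in CS5 (49.8 CPM), *IGLL1* in RS4 (472 CPM), *VNN2* in CS5 (21.4 CPM) and *TTR* in AH5 (49.0 CPM) made up the rest. The part of these cows in the differences was measured only by leaving them out.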

How the results depend on the processing

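The *SLC14A1* and *ARG1* differences with AH kept their direction and stayed above the adjusted threshold of 0.05 under all alternatives run, which were other pseudocounts, filters, scalings, tools and cows left out. The *ARG1* difference of RS vs. CS, −0.01, was 0.20 without CS2 and RS5, 0.091 without these and AH3 and RS3, and −0.46 to 0.38 with 1 cow left out. The correlation of both genes, 0.30, was −0.082 without CS2 and RS5, −0.022 without the 4 cows and 0.02 to 0.48 with 1 cow left out. The cause was not tested.

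Counts of all genes called by limma (1 for AH vs. CS, 1 for AH vs. RS, 0 for RS vs. CS, and 2 for AH against both) became 5, 7, 0 and 15 by DESeq2 and 126, 116 and 97 by the common-dispersion exact test of edgeR. Other moves were 0 in AH vs. CS from the compared cows alone, 1 in RS vs. CS and 1 for AH against both without a filter, and 1 for the latter by edgeR's quasi-likelihood test or without a trend. With 1 cow left out they were 1 to 2, 1 to 5, 0 to 6 (the 6 without RS6) and 1 to 3. The common dispersion called 2 nitrogen genes (*PADI1* and *SLC6A14*) for AH vs. CS and 1 (*PADI1*) for AH vs. RS.

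Same-numbered cows of different diets deviated together in some pairs only (r −0.48 to 0.71 over 18 pairs). Their median r was 0.20, against −0.05 over 90 other pairs. Whether the numbers mark blocks cannot be settled from this summary, and the labels do not say. The study names a randomized complete block design for its other measurements, such as rumen fermentation and papilla width. A fit with the replicate block gave *SLC14A1* a difference of 0.97 (limma adjusted p = 0.719) in AH vs. RS and called 2 genes there. Its unadjusted limma p was 0.00135 with the block and 0.00245 without it. With 6 cows a diet and an SD of 1.21 within diets, the *ARG1* interval spans more than a 2-fold difference.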
